A study of Mus musculus with 2 samples.

Results

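The genes described here encode the nuclear part of respiratory complex I and some of the proteins that assemble it. They were chosen by symbol alone, as every row of the deposited tables whose gene symbol starts with Nduf, without symbols marked as pseudogenes. This gave 42 genes of 13326, none of them in 2 rows. All 42 reached at least 1 FPKM (fragments per kilobase of transcript, scaled to sequencing depth) in at least 1 library, the minimum used for comparison, which 11985 genes met. The study sequenced liver mRNA from male C57BL/6J mice aged 12 weeks after an overnight fast, either wild type or Adipoq-/-, which lack the gene for the adipocyte hormone adiponectin. RNA from 9 to 10 mice of a genotype was combined into 1 library, called a pool below. How the knockout allele was made is not given in the sources used here. Because Adipoq was not analysed here, the targeted gene gives no check of the labels. With 1 library per genotype there is no replicate error, no test and no p-value, and each difference below is one between a pair of libraries.

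Complex I (NADH:ubiquinone oxidoreductase) is the entry point of electrons from NADH into the mitochondrial respiratory chain. It is L-shaped. A hydrophilic arm in the mitochondrial matrix holds the N module, which oxidises NADH with a flavin and passes the electrons along iron-sulphur clusters, and the Q module, which hands them to ubiquinone. A membrane arm pumps protons across the inner membrane. The mitochondrial genome encodes the central proton-pumping subunits, and nuclear genes encode the remaining core subunits, a larger number of accessory subunits around them, and assembly factors that are absent from the finished enzyme. In hepatocytes the complex reoxidises the NADH released by fatty acid oxidation and the tricarboxylic acid cycle, which are in use during a fast.

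The promoters of 3 members are shown because they belong to the ends of the range described below: Ndufa3 had the highest ratio between the libraries, Ndufaf1 the lowest, and Ndufa4 the highest mean level. Each line gives the 150 bases before the annotated start, 5′ to 3′ on the gene's strand, from RefSeq (GRCm38.p6). Capitals mark a GC box core (GGGCGG) or an ETS family core (CCGGAAG) on either strand.
Ndufa3, chr7:3617223-3617372, + strand: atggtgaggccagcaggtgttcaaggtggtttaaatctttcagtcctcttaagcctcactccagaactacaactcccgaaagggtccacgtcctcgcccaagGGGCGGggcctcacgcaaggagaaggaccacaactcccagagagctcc
Ndufaf1, chr2:119662835-119662984, - strand: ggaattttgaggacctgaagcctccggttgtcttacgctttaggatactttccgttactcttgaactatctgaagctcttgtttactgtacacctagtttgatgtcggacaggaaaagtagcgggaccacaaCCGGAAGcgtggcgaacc
Ndufa4, chr6:11907451-11907600, - strand: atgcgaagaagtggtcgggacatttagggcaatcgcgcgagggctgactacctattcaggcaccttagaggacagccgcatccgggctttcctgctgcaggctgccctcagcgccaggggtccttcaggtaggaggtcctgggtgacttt

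By symbol, 37 of the 42 genes matched a promoter window, and these were searched on both strands, over the 250 bases before the start, for 5 short motifs of factors known to act on respiratory genes. The GC box core GGGCGG, bound by SP factors, occurred in 18 of 37 members (48.6%) and in 35.4% of the 27025 genes with a window. This background, used for every motif, was not limited to the 11985 genes that reached the minimum, whereas every member reached it. The NRF1 core GCATGCGC occurred in Ndufa6, Ndufa8, Ndufa11 and Ndufaf4, or 10.8% of members against 2.56% of genes. The ETS core CCGGAAG, the kind of site bound by GABPA, occurred in Ndufaf1, Ndufb6, Ndufb7 and Ndufs3, also 10.8% of members and 7.83% of genes. The estrogen-related receptor core AAGGTCA occurred in Ndufb2, Ndufb4 and Ndufs5 (8.11% and 4.70%). No member held the YY1 core AAGATGGC in this window, and 1.83% of genes did. In Ndufs3 the ETS match and 1 GC box match overlap, the only such pair among the members. The members with a match had ratios throughout the range, from the lowest (Ndufaf1) to the highest (Ndufa3).

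Levels were compared on the FPKM scale, which is per transcript length. Across the members, mean FPKM was still higher for shorter spliced transcripts (Spearman rho -0.52). The most abundant member was Ndufa4, at 935 FPKM in the wild-type pool and 1136 in the knockout pool. Its protein was long counted among the complex I subunits and is now assigned to cytochrome c oxidase. Next came Ndufb9 (657 and 919 FPKM), Ndufa1 (514 and 736), Ndufa3 (470.2 and 758) and Ndufb8 (554 and 659), all subunits of the membrane arm. These 5 genes were the only members with a mean above 500 FPKM. A further 22 had means between 100 and 400 FPKM and 11 between 20 and 100. The remaining 4 were below 20 FPKM, namely the assembly factors Ndufaf1, Ndufaf3 and Ndufaf4 and the Ndufa4 paralog Ndufa4l2, known for induction under low oxygen, at 1.66 and 1.31 FPKM.

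Although the subunits enter the complex in fixed numbers, their transcript levels covered a wide range. Among the 36 nuclear subunits the lowest level was that of Ndufa11 in the wild-type pool (20.3 FPKM) and of Ndufa11 and Ndufs1 in the knockout pool (both 26.0). The median subunit stood at 139.6 FPKM in the wild-type pool and 155 in the knockout pool. The order of the 42 levels was similar in both libraries (Spearman rho 0.98 across genes, which share the same libraries and gene models). The 42 genes together summed to 7991 FPKM in the wild-type pool and 9615 in the knockout pool, 1.0% and 1.1% of all FPKM. Whether neighbours in this order differ beyond the spread between samples cannot be said without replicates.

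**Figure D1:**
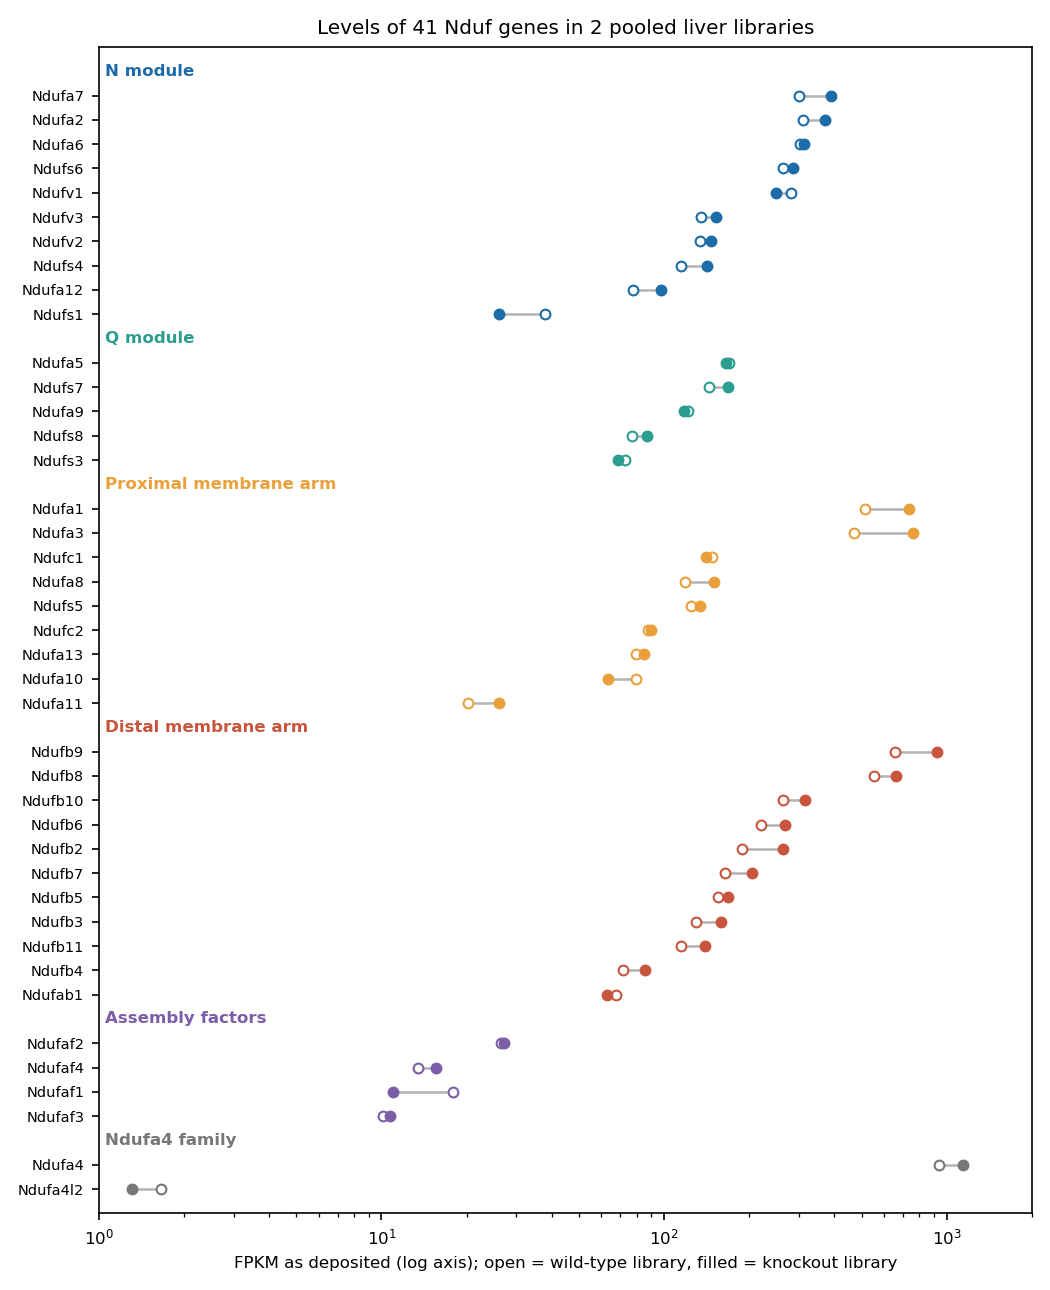
FPKM as deposited (log axis) of 41 Nduf genes, grouped by place in complex I and ordered by mean level; open circles are the wild-type pool and filled circles the knockout pool. Most filled circles lie to the right of the open ones, whereas those of Ndufs1, Ndufa10, Ndufa4l2 and Ndufaf1 lie clearly to the left.

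For each gene, 1 FPKM was added to both values and the log2 of knockout over wild type was taken, which understates differences between low values. Over all 11985 genes the median log2 ratio was -0.15, so a relative log2 ratio, with that median subtracted, is given unless FPKM as deposited are named. Most Nduf transcripts were somewhat higher in the knockout pool. As deposited, 31 of 42 members had the higher FPKM there, against 33.1% of all genes, and 37 of 42 had a relative ratio above the all-gene median, which 50% of genes exceed by construction. The median relative log2 ratio of the members was 0.33 (0.18 as deposited), with a range from -0.51 for Ndufaf1 to 0.84 for Ndufa3. It stayed above 0 but shrank to 0.02 when the libraries were rescaled to equal FPKM sums, where 22 of 42 members were higher and the median of all genes was -0.28.

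Differences were small for single genes. A relative log2 ratio of 0.32 or more, taken as the upper limit, was found for 22 of 42 members, against 19.8% of genes. The count was 8 without centring, 3 with equal sums, 5 against genes of like length and 4 against genes of like length and mean FPKM. Only Ndufaf1 and Ndufs1 lay as far below 0, past the lower limit, against 11.7% of genes. On the deposited values 1 member, Ndufa3, was at least 1.5-fold higher (background 3.23% of genes) and 1 member, Ndufaf1, at least 1.5-fold lower (background 6.17%), so neither share exceeds that of other genes. Among the 4991 genes whose mean reached 10 FPKM, the central 95% lay between relative log2 ratios of -0.54 and 0.82. Of the 41 members at that level, only Ndufa3 lay outside.

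The N module showed both directions. Ndufv1, which carries the flavin and binds NADH, stood at 281 FPKM in the wild-type pool and 249 in the knockout pool, a relative log2 ratio of -0.02. Ndufs1, the largest core subunit, which carries several iron-sulphur clusters, had 37.8 FPKM in the wild-type pool and 26.0 in the knockout pool (-0.37), the lowest ratio of any subunit. The remaining core subunit of this module, the iron-sulphur protein Ndufv2, was higher in the knockout pool (134 and 147 FPKM, 0.28). All 7 accessory N module genes were higher there. Ndufa7 had 299 and 389.9 FPKM (0.54), Ndufa12 77.5 and 97.1 (0.47), and Ndufs4, whose loss causes a Leigh-like disease in mice and people, 115 and 141 (0.45). Ndufa2 (309 and 370.3 FPKM, 0.41) and Ndufv3 (135 and 152, 0.32) followed. Ndufs6 (264 and 286, 0.27) and Ndufa6 (302 and 312, 0.20) were closest to the all-gene median. Over the 10 genes the median relative log2 ratio was 0.30, with 8 above the all-gene median. Against genes of like length the module's median was 0.006, with 5 of 10 above 0.

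The Q module gave small ratios. Its core subunit Ndufs3 had 72.9 FPKM in the wild-type pool and 68.9 in the knockout pool (relative log2 ratio 0.07). The iron-sulphur subunits Ndufs7 (144 and 168 FPKM, 0.37) and Ndufs8 (76.6 and 87.2, 0.33) were higher in the knockout pool. Ndufa5 (169.8 and 166 FPKM, 0.12) and Ndufa9 (122 and 117, 0.10) were slightly lower there as deposited, yet above the all-gene median. The median relative log2 ratio of the module's 6 genes was 0.11.

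The 9 nuclear genes of the proximal membrane arm held the widest spread of ratios among the subunit groups. Ndufa3 stood at 470.2 FPKM in the wild-type pool and 758 in the knockout pool, a 1.61-fold difference as deposited and a relative log2 ratio of 0.84, which 1.84% of all genes exceeded. Ndufa1, a small X-linked subunit with a single membrane span, had 514 and 736 FPKM (0.67). Ndufa11 (20.3 and 26.0 FPKM, 0.50) and Ndufa8 (119 and 150.3, 0.49) also passed the upper limit. That limit was passed by 4 of the 9 genes, against 19.8% of all genes and 1361 of the 2571 genes under 1000 bases. Against genes of like length the arm's median was 0.14, with 5 of 9 above 0. Ndufs5 (124 and 133 FPKM, 0.26), Ndufa13, also known as GRIM-19 (79.8 and 84.8, 0.24), Ndufc2 (87.5 and 90.2, 0.19) and Ndufc1 (147 and 140.3, 0.08) were nearer to other genes. Ndufa10, related to nucleoside kinases, was the single gene of this arm below the all-gene median, at 79.8 FPKM in the wild-type pool and 63.1 in the knockout pool (-0.18).

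The distal membrane arm lay wholly above the all-gene median. All 11 measured genes were above the all-gene median, 9 of them past the upper limit, with a median relative log2 ratio of 0.43. That limit was passed by 19.8% of all genes and by 1361 of the 2571 genes under 1000 bases. Against genes of like length and mean FPKM, Ndufb5, Ndufb6 and Ndufb10 were below 0, Ndufb3 was at 0 and the others were above. Against genes of like length the median was 0.13, with 10 of 11 above 0 and Ndufb5 at -0.08. Ndufb9 had 657 FPKM in the wild-type pool and 919 in the knockout pool (0.64) and Ndufb2 189 and 264 (0.63). Another 7 genes fell in a narrow band, from Ndufb8 (554 and 659 FPKM, 0.40) through Ndufb4 (71.4 and 85.8, 0.41), Ndufb10 (263 and 316, 0.41), Ndufb6 (220.3 and 267, 0.43), Ndufb11 (114 and 139, 0.43) and Ndufb3 (129 and 159, 0.45) to Ndufb7 (164 and 204, 0.47). Ndufb5 (155 and 169 FPKM) had a ratio of 0.27. Ndufab1, the mitochondrial acyl carrier protein, which also serves lipoic acid synthesis outside complex I, was the only gene of this arm with lower FPKM in the knockout pool (67.4 and 62.7, 0.05). Ndufb1 was not analysed here.

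**Figure D2:**
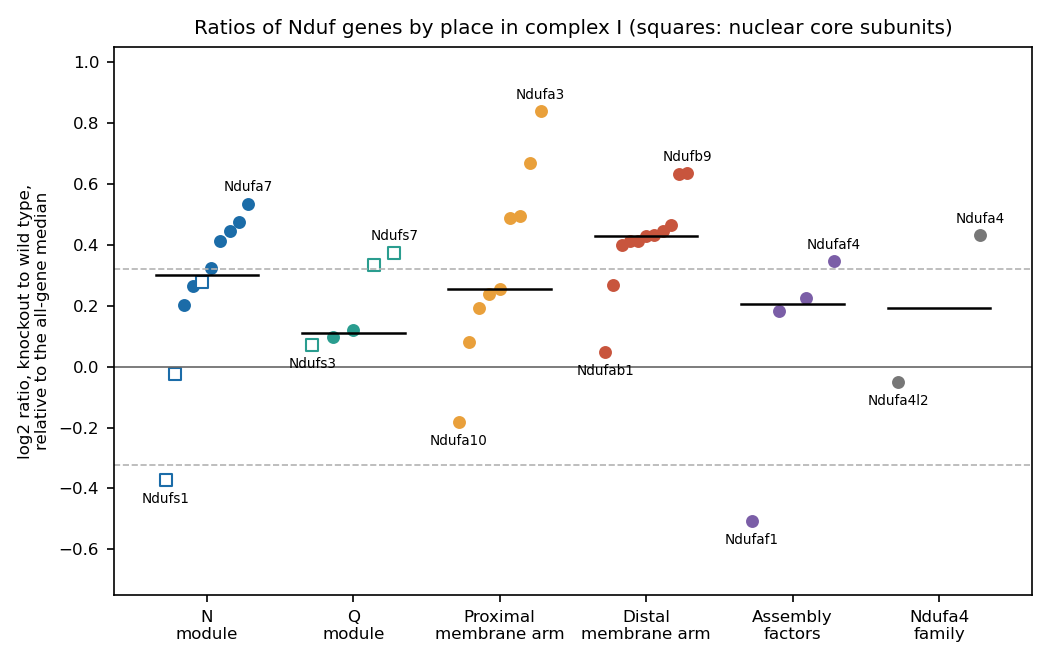
Log2 ratio of knockout to wild-type FPKM relative to the all-gene median for 41 Nduf genes, by place in complex I; squares are nuclear core subunits, circles all other members, black bars group medians over all members and dashed lines the limits at 0.32 above and below 0. The distal membrane arm lies wholly above 0, while Ndufs1 and Ndufaf1 are the members below the lower dashed line.

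Core and accessory subunits differed in their medians. The 7 nuclear core subunits, which hold the flavin and the iron-sulphur clusters, had a median relative log2 ratio of 0.07, with 5 above the all-gene median. The 29 accessory subunits had a median of 0.41, with 28 above the all-gene median. Core transcripts were also longer, with a median spliced length of 1312 bases against 704 for the accessory subunits. Set against the running median of genes of like length, the medians were 0.04 for core and 0.12 for accessory subunits.

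Transcript length moved with the ratio throughout these libraries. Across the 11571 genes with a GENCODE length the Spearman correlation of spliced length and ratio was -0.45, and across the 42 members it was -0.44. These are descriptions across genes that share both libraries. Members with spliced lengths of 300 to under 600 bases had a median relative log2 ratio of 0.42 (12 members), close to the 0.40 of all 1042 genes in that range. For 600 to under 1000 bases the medians were 0.41 (15 members) and 0.29 (1240 genes). For 1000 to under 2000 bases they were 0.16 (10 members) and 0.04 (2970 genes), and for 2000 to under 4000 bases 0.05 (5 members) and -0.09 (3960 genes).

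Against genes of like length the members' median was 0.09 instead of 0.33, with 27 of 42 above 0. Level moved with the ratio as well. Against genes of like mean FPKM the median was 0.13, and against the genes nearest in both length and mean FPKM it was -0.001, with 20 of 42 members above 0. On that last reference the members as a group were no higher than transcripts of like length and level, a set from which the members were not removed. The references that use mean FPKM were added after the data were seen, and that mean includes the knockout value. A difference that the members share with such transcripts would not show on them. With 1 library per genotype, a difference of genotype and a difference of library preparation that acts by transcript length cannot be told apart.

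**Figure D3:**
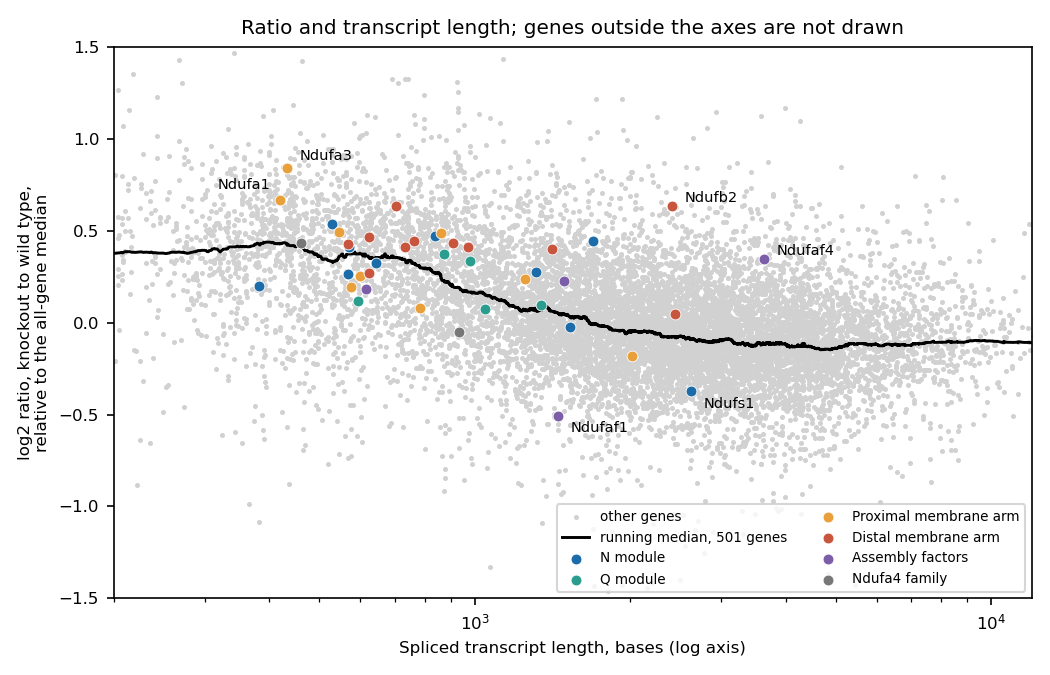
Relative log2 ratio of knockout to wild-type FPKM against spliced transcript length in bases (log axis) for all genes (grey), with the running median of genes (black line) and the Nduf genes coloured by place in complex I. Most members follow the black line, with Ndufb2 and Ndufaf4 well above it and Ndufaf1 well below it.

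Some members kept their side of 0 in every alternative tried, which included pseudocounts and minimums as well as references. Summing symbols in 2 rows, or leaving out Ndufa4 and Ndufa4l2, could hardly move the ratio of a member. Ndufa3 ranged from 0.34 to 0.87, Ndufb2 from 0.30 to 0.73, Ndufb9 from 0.18 to 0.66, Ndufa1 from 0.17 to 0.70 and Ndufs4 from 0.13 to 0.47 over the 15 alternatives. On the lower side, Ndufaf1 ranged from -0.80 to -0.49, Ndufs1 from -0.68 to -0.23 and Ndufa10 from -0.49 to -0.14. In all, 15 members stayed above and 4 below 0 in every alternative that held them, 22 changed sign under at least 1, and Ndufb3 was at 0 in 1 and above 0 in the others. The length of Ndufb2 is uncertain, since its 2 basic GENCODE transcripts are 455 and 4371 bases long. Against genes of like coding length Ndufa3 was the highest member (0.50).

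**Figure D4:**
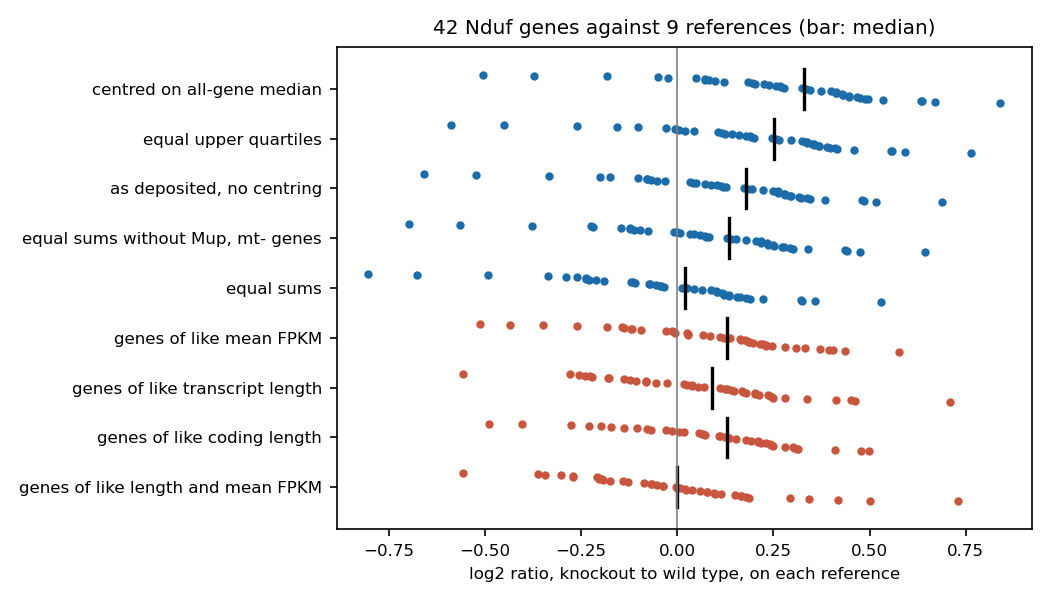
Log2 ratios of knockout to wild-type FPKM of the 42 Nduf genes (points) with their median (black bar) on different references, whole-library scalings in blue and comparison with like genes in red. The median moves from 0.33 when centred on all genes to 0.02 with equal sums and -0.001 against genes of like length and mean FPKM. With equal sums the median of all genes was negative.

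Assembly factors had levels like those of the least abundant subunits or below, and their ratios went in both directions. Ndufaf1, a chaperone of the intermediate that forms the proximal membrane arm, had 17.9 FPKM in the wild-type pool and 11.0 in the knockout pool, a relative log2 ratio of -0.51 that 96.0% of genes exceeded. Ndufaf3 (10.1 and 10.7 FPKM, 0.22) and Ndufaf4 (13.5 and 15.6, 0.35), partners in assembling the Q module, were slightly higher in the knockout pool. Ndufaf2, a paralog of Ndufa12 that holds its place late in assembly, had 26.4 and 27.1 FPKM (0.18). Another 4 assembly factors are listed under older symbols and so were not among the 42. Ndufaf5, which modifies Ndufs7, had 6.98 and 11.2 FPKM (0.77), Ndufaf6 27.5 and 35.1 (0.50), Ndufaf8 29.9 and 33.7 (0.32), and the methyltransferase Ndufaf7 7.50 and 6.56 (-0.02). Over all 8, the median was 0.27 and 6 were above the all-gene median.

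Assembly factors with other names gave a median relative log2 ratio of 0.10, with 8 of 13 measured genes above the all-gene median. Of the 13, 4 were past the upper limit and 1 past the lower, against 19.8% and 11.7% of all genes. The partners of Ndufaf1 in the same assembly complex were not lower to the same degree. Acad9 stood at 29.9 FPKM in the wild-type pool and 23.6 in the knockout pool (-0.18), Tmem126b at 19.1 and 18.0 (0.07), and Ecsit at 19.6 and 23.0 (0.37), all 3 named after their values were seen. Tmem126a had the highest ratio of this list (50.5 and 67.1 FPKM, 0.55). Aifm1, which supports import of respiratory chain proteins, had the lowest (68.1 and 46.6, -0.39).

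The 7 subunits encoded by the mitochondrial genome are the proton-pumping counterpart of the nuclear genes. Their median relative log2 ratio was 0.31, with 5 of 7 above the all-gene median, and 0.08 against genes of like length. In the wild-type and knockout pools mt-Nd4 had 6494 and 7622 FPKM (0.38), mt-Nd1 4938 and 5786 (0.38), mt-Nd2 4913 and 5237 (0.24) and mt-Nd5 2011 and 2251 (0.31). The small mt-Nd4l had 942 and 1083 FPKM (0.35), while mt-Nd3 (1192 and 1061, -0.02) and mt-Nd6 (1084 and 925, -0.08) were lower in the knockout pool as deposited. mt-Nd6 lies on the opposite strand beside mt-Nd5, and whether reads were counted by strand is not given in the sources used here. Together they summed to 21575 and 23964 FPKM, against 6986 and 8414 for the 36 nuclear subunits.

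Nuclear genes of complexes II to V gave a like picture, with 33 of 38 above the all-gene median, a median relative log2 ratio of 0.40 and 0.06 against genes of like length. The medians were 0.15 for complex II (4 genes), 0.09 for complex III (9), 0.42 for complex IV (10) and 0.40 for complex V (15). Sdha, the large flavoprotein of complex II, had 488 FPKM in the wild-type pool and 361 in the knockout pool (-0.28), the lowest of the 38, and Atp5j, of the stalk of ATP synthase, 606 and 904 (0.73), the highest. No difference between complex I and these complexes was tested.

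Regulators of respiratory genes were mostly below the all-gene median, in 7 of 10 genes measured at 1 FPKM or more, with a median relative log2 ratio of -0.07. Gabpa, the DNA-binding subunit of NRF2/GABP, which acts through ETS sites, had 15.9 FPKM in the wild-type pool and 8.40 in the knockout pool (-0.70). Its partner Gabpb1 had 3.69 and 3.70 (0.16). Nrf1, the factor named for nuclear respiratory genes, had 3.45 and 2.76 FPKM (-0.09), the nuclear receptor Esrra 6.56 and 6.03 (0.04), Yy1 6.75 and 5.32 (-0.14), and Tfam, which packages and transcribes the mitochondrial genome, 23.0 and 21.4 (0.05). The coactivator Pprc1 (1.62 and 0.907 FPKM, -0.31) and the deacetylase Sirt1 (1.37 and 0.701, -0.33) were low in both libraries, and the mitochondrial deacetylase Sirt3 (89.5 and 79.5, -0.02) and Ppara (36.5 and 31.7, -0.05) were near other genes. Ppargc1a, the coactivator of mitochondrial biogenesis, stood below the minimum at 0.636 and 0.335 FPKM.

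Several members share sequence with other genes, which can split their reads. Against all GENCODE M21 transcripts, 12 of 42 members had a stretch of at least 200 bases with at least 95% identity in another gene. For Ndufa13, Ndufb5, Ndufb6 and Ndufb9 that gene overlaps the member's own exons (100% identity), so these are not copies elsewhere. For Ndufb3, Ndufb4 and Ndufs6 that gene is a processed pseudogene with no FPKM listed, so the levels of these members are uncertain. For 5 of the 12 members a processed pseudogene was listed with FPKM of its own. Ndufa12 and its copy Gm15920 had 77.5 and 89.6 FPKM in the wild-type pool and 97.1 and 109 in the knockout pool. Ndufs5 and BC002163 had 124 and 152 in the wild-type pool and 133 and 169 in the knockout pool. Ndufb11 and Gm6444, Ndufs3 and Gm12251, and Ndufab1 and Gm4459 likewise had levels of the same order, so the levels of these 5 members are uncertain. Summing each pair left their relative log2 ratios near the values above, at 0.45 for Ndufa12, 0.28 for Ndufs5, 0.38 for Ndufb11, 0.06 for Ndufs3 and 0.06 for Ndufab1. Exons of 14 members overlap a gene on the opposite strand, among them Ndufa3 with Tfpt (8.46 and 7.75 FPKM) and Ndufs6 with Mrpl36 (25.0 and 30.9). The low Ndufa4l2 (1.66 and 1.31 FPKM) overlaps the far more abundant Shmt2 (51.8 and 41.4), so its values and its place below 0 are uncertain.

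Defining hepatocyte genes were abundant in both libraries, with 8 of 8 markers measured and summed levels of 34546 FPKM in the wild-type pool and 31583 in the knockout pool. Alb made up much of these sums, with 17522 and 14031 FPKM. As deposited, Apoa1 (6039 and 6541) and Serpina1a (2779 and 3001) were higher in the knockout pool and the others lower. Of the 8, 4 were above the all-gene median and 4 below. Of other cells, muscle, rich in respiratory chain transcripts, had 2 of 8 markers at 1 FPKM or more, summing to 4.60 and 4.33 FPKM. Macrophage markers summed to 188 and 233 FPKM, with 7 of 8 above the all-gene median. Lyz2, with 72.5 and 116 FPKM, held most of that difference. As deposited, Clec4f (52.0 and 48.9), Cd5l (32.4 and 31.2) and Cd68 (9.43 and 8.15) were lower in the knockout pool and the others higher. Adipocyte markers had 2 of 6 at 1 FPKM or more, which went opposite ways: Cfd had 13.3 and 2.01 FPKM and Fabp4 9.61 and 11.0 (sums 22.9 and 13.0). Markers of red cells summed to 7428 and 8617 FPKM (3 of 4 measured). Markers of endothelium (51.7 and 54.5 FPKM) and stellate cells (74.1 and 75.6) were low, and no lymphocyte marker reached 1 FPKM. Of cholangiocyte markers, summing to 16.2 and 23.6 FPKM (3 of 5 measured), Spp1 made up most, with 13.4 and 21.01. Of acinar markers, summing to 29.7 and 57.8 FPKM (2 of 5 measured), Cela1 had 28.5 and 56.9 and Amy2a5 1.2 and 0.82. The part of these cells in the Nduf ratios was not tested, and in whole liver a different number of cells and a different RNA content per cell cannot be told apart.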

How the data were processed

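Liver mRNA of wild-type and Adipoq-/- mice was analysed from 2 pooled libraries, 1 per genotype, grouped by the genotype label. The authors deposited FPKM per gene symbol in 13352 rows per library. TopHat, Cuffdiff, mm9 and NCBIM37 are named in the submitters' processing notes. Their versions, settings, annotation and row filters were not given in those sources. Counts were not used and the depth is unknown, so no interval was computed.

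For the 26 symbols present in 2 rows, the one of higher mean FPKM was used. Log2 ratios used a pseudocount of 1 FPKM and genes with at least 1 FPKM in 1 library. Spliced lengths are medians over GENCODE M21 basic transcripts, on another build than the files, so only lengths, names and overlaps were taken from it. References of like length or of like mean FPKM are running medians of 501 genes. The reference of like length and mean FPKM is the median of the 201 genes nearest in both ranks. Members were not removed from these references. Copies were sought with blastn 2.17.0. The ratio code, in Python 3.11.15, was checked on simulated tables.

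All genes with the Nduf symbol could be named (1 is not reported here), all mitochondrially encoded subunits and regulators, and the highest and lowest member of other lists. Members, lists and limits were chosen with earlier results of these data known, and the motifs after sequences were seen. Alternatives were other pseudocounts, minimums, scalings and references.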

Additional observations from a re-analysis of the deposited data

How the results depend on the processing

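The median relative log2 ratio of the 42 genes was 0.33 and stayed within 0.1 of that with pseudocounts of 0.1 or 0.5 FPKM, with the minimum dropped or raised to 5 FPKM, equal upper quartiles, summed duplicate rows, or without Ndufa4 and Ndufa4l2. It was 0.18 as deposited, 0.13 with equal sums without Mup and mt- genes, 0.0191 with equal sums, 0.0907 against genes of like length, and, in alternatives added after the data were seen, 0.0992 with the longest transcript as length, 0.129 against genes of like coding length, 0.129 against genes of like mean FPKM and -0.00104 against genes of like length and mean FPKM. The count above 0 was 37, and 22 with equal sums and 20 against genes of like length and mean FPKM. With equal sums the median of all genes was negative and the members' median lay above it. The count there is therefore not one against other genes. In the order of those 8 settings, the 22 genes past the upper limit became 8, 5, 3, 5, 5, 3, 6 and 4. The 2 genes past the lower limit became 3, 3, 4, 1, 1, 2, 3 and 3 in the same order. For these 8 settings the shares of all genes past the limits were not computed, so the counts have no background. Against genes of like length and mean FPKM the ratio changed sign for 16 genes, of which 6 had been past the upper limit: Ndufa2 (-0.0684), Ndufa4 (-0.0658), Ndufb10 (-0.0370), Ndufb6 (-0.0536), Ndufs7 (-0.0361) and Ndufv3 (-0.13, and -0.0264 against genes of like length). The cause was not tested. No replicate could be left out. No paired analysis was possible because each genotype has 1 library.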

Other observations

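Iron-sulphur cluster assembly supplies the cofactors of the hydrophilic arm of complex I. Its 14 genes had a median relative log2 ratio of 0.09, with 11 above the all-gene median, and a median of 0.003 against genes of like length. Of the 14, 1 was past the upper limit and 1 past the lower, against 19.8% and 11.7% of all genes. Bola3, needed to pass clusters to lipoic acid synthase and the respiratory chain, had 118 FPKM in the wild-type pool and 169.9 in the knockout pool (0.68). Hspa9, the mitochondrial chaperone mortalin, had 112 and 79.0 FPKM (-0.35).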
